A study of Mus musculus with 19 samples.

Results

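The transcripts described here encode 10 receptor chains through which monocytes and their precursors receive colony-stimulating factors, the 4 cytokines that were infused in this study, and IL-4. The rule names them (Csf1r, Csf3r, Csf2ra, Csf2rb, Csf2rb2, Il6ra, Il6st, Ifnar1, Ifnar2 and Il4ra) and uses no measured value, although it was written with earlier results of these data known, and all 10 have a row among the 50854 genes of the count table. RNA was sequenced from bone marrow cells of female REP mice aged 8 to 12 weeks, in which fluorescent proteins report the expression of CCR1, CCR2 and other chemokine receptors, and which share these reporter alleles in all 5 groups. For culture and single-cell sequencing, the paper sorted bone marrow monocytes as CD11b+, Ly6C-high, Ly6G-negative and SiglecF-negative. For bulk sequencing it describes sorted CCR1/2 and CCR2-only monocytes without repeating the gate, and it does not report an inflamed CCR1 group. Cells were taken either from resting mice or from mice made inflamed by implanted osmotic pumps that released IL-3, IL-6, GM-CSF and IFN-α. The groups were resting CCR2 (n = 4), resting CCR1/2 (n = 4), inflamed CCR2 (n = 4), inflamed CCR1/2 (n = 3) and inflamed CCR1 (n = 4), named for the reporters of the sorted cells. The labels do not say whether resting mice carried a pump without cytokines, nor whether the libraries of a group came from separate mice, so p-values measure the spread between these libraries, which may be technical.

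Cytokine receptors are built from chains with separate tasks. CSF1R is a tyrosine kinase that binds CSF1 and IL-34 and keeps monocytes and macrophages alive, whereas CSF3R binds G-CSF as a pair of identical chains and is best known for driving granulocyte production. The GM-CSF receptor joins a ligand-binding α chain (CSF2RA) to the β common chain (CSF2RB), and mice have in CSF2RB2 a second, closely related β chain that serves IL-3. IL-6 is bound by IL6RA, which signals only through the shared chain gp130 (IL6ST), type I interferons bind IFNAR1 and IFNAR2, and IL4RA is the signalling chain for IL-4 and, with IL13RA1, for IL-13. The row of Il3ra, which encodes the α chain for IL-3, was not analysed here.

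The promoter sequences of 3 chains whose transcripts were lower in inflamed libraries (Csf2ra, Il6ra and Ifnar2) and of 1 whose transcript was higher (Csf2rb2) are shown as the regulatory context of chains called in both monocyte populations. Csf2rb2 was taken from the higher ones because, of those matched in the promoter table, it alone held both kinds of motif. Each runs 5′ to 3′ on the strand of the gene over the 250 bases before the start site in RefSeq, build GRCm38.p6. Capitals mark the letters GAGGAA, a core bound by the myeloid factor PU.1, or TTCNNNGAA, the spacing of a STAT site, on either strand. Among 32851 RefSeq promoters of the same length, 23.3% held GAGGAA, 7.0% held TTCNNNGAA and 7.1% held GAAANNGAA, the core of interferon-stimulated response elements, which none of the 4 printed windows contained. A match is a description of these letters and not of binding. Csf2ra on chr19:61228419-61228668, minus strand, held 2 adjoining GAGGAA cores ending 3 bases before the start.
Csf2ra: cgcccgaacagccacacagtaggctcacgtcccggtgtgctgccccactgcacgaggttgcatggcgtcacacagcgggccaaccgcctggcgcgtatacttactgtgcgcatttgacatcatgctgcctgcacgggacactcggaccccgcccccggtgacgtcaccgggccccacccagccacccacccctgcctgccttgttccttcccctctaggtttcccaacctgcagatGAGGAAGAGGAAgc
Il6ra on chr3:89913197-89913446, minus strand, held 1 such core on the opposite strand.
Il6ra: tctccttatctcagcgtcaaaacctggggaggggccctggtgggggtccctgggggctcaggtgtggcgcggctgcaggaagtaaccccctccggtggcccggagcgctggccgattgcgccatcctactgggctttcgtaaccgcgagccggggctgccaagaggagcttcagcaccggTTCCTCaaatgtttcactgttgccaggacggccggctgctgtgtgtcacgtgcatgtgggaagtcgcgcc
Ifnar2 on chr16:91372533-91372782, plus strand, held 1 TTCNNNGAA site.
Ifnar2: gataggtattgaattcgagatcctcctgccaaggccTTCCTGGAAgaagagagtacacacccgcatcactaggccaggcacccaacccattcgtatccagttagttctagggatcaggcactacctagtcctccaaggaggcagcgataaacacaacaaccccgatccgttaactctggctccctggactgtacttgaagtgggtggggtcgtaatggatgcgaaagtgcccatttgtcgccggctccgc
Csf2rb2 on chr15:78305722-78305971, minus strand, held 1 core and 1 TTCNNNGAA site, the latter ending 7 bases before the start.
Csf2rb2: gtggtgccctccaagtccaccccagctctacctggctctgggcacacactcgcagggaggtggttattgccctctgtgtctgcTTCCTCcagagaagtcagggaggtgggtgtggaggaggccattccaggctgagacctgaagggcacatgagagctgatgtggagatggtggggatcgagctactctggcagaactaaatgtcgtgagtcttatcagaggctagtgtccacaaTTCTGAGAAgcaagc

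Libraries held between 22268658 and 30502009 reads on genes. Levels are given as CPM, a read count scaled to the size of its library with TMM factors over the 19 libraries, and genes are compared with one another only as CPM per kilobase of exon. The labelled cell type was checked against marker genes, with the receptors themselves left out of the sums. The 18 monocyte markers summed to between 37739 and 73703 CPM in the resting libraries and in the inflamed CCR2 and CCR1/2 libraries, but to 10961 to 16362 CPM in the 4 libraries labelled inflamed CCR1. In those 4 libraries 18 neutrophil markers summed to between 109821 and 160211 CPM, against at most 4078 CPM in every other library, and 9 early granule and progenitor markers summed to 55318 to 62064 CPM, against at most 6826 CPM. The latter sum was led by the granule genes Elane (mean 24889 CPM) and Mpo (20732 CPM). Cd34 averaged 11.1 and 16.1 CPM in resting CCR2 and CCR1/2 and 1.01 and 1.04 CPM in inflamed CCR2 and CCR1/2 libraries. In the inflamed CCR1 libraries Cd34 averaged 1.96 CPM, Flt3 0.152 CPM and Kit 160 CPM. Ccr2 itself stood at 5.82 ± 2.56 CPM (SD, n = 4) there and at 1251 ± 125 CPM (n = 4) in inflamed CCR2 libraries, and Ccr1 at 38.0 ± 4.60 CPM and 209 ± 57.4 CPM. The inflamed CCR1 libraries thus went against their label as monocytes, so they are described apart from the other groups.

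A gene was called as changed when edgeR's quasi-likelihood test gave it a Benjamini-Hochberg adjusted p below 0.05 together with a log2 fold change at or beyond 1 in either direction, and each fold change is given ± its standard error. Inflamed and resting cells were compared to ask how levels differed between the conditions in each population. The labels do not say whether inflamed and resting libraries were prepared and sequenced together. An effect of the infusion and a difference in preparation therefore cannot be told apart. Words such as rose, fell, changed and after infusion describe only the difference between these libraries. Between inflamed and resting CCR2 monocytes, 4 of the 10 receptor transcripts were higher (Csf2rb, Csf2rb2, Csf3r and Il4ra) and 3 were lower (Csf2ra, Il6ra and Ifnar2), while 9.47% of the 18502 genes tested were called higher and 19.3% lower. Between inflamed and resting CCR1/2 monocytes the same 7 were called in the same directions and Csf1r was higher as well, which makes 5 higher and 3 lower, while 9.21% of 18547 genes were called higher and 19.5% lower. The median log2 fold change of the 10 was -0.03 and 0.51 in these comparisons, beside -0.11 and -0.27 over all genes tested. Inflamed and resting libraries did not overlap for 9 of the 10 in CCR2 and 8 in CCR1/2 monocytes. The same held for 46.1% and 50.4% of all genes tested. A correction for GC content, chosen after the data were seen, changed the share of higher genes among all calls from 32.9% to 45.5% in CCR2 and from 32.1% to 48.8% in CCR1/2 monocytes, with the median over all genes moving from -0.11 to 0.11 in CCR2 monocytes, and all 7 and 8 receptor calls remained under it. Among markers of other cells, 8 of 10 erythroid genes and 5 of 9 early granule and progenitor genes were lower and 5 of 7 basophil and mast cell genes higher in inflamed CCR2 monocytes, and 7, 7 and 5 in CCR1/2 monocytes. Mature neutrophil genes, with Csf3r counted among them, were higher for 7 of 17 in CCR2 (1 lower) and 7 of 18 in CCR1/2 monocytes (2 lower). Dendritic cell genes were lower for 7 of 13 (1 higher) and 4 of 13 (2 higher). The summed level of 12 tissue macrophage markers was 352 to 492 CPM in resting and 661 to 837 CPM in inflamed CCR2 libraries. Their most abundant gene was Adgre1, at 314 and 538 CPM on average. In CCR1/2 libraries the sum was 267 to 357 CPM at rest and 729 to 776 CPM after infusion. Of these 12 genes 4 were higher and 0 lower in CCR2, and 3 higher and 4 lower in CCR1/2 monocytes (medians 0.70 and -1.02). The part of these lists in the receptor results was not tested. In bulk RNA, fewer cells of a type and less RNA per cell cannot be told apart.

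**Figure D1:**
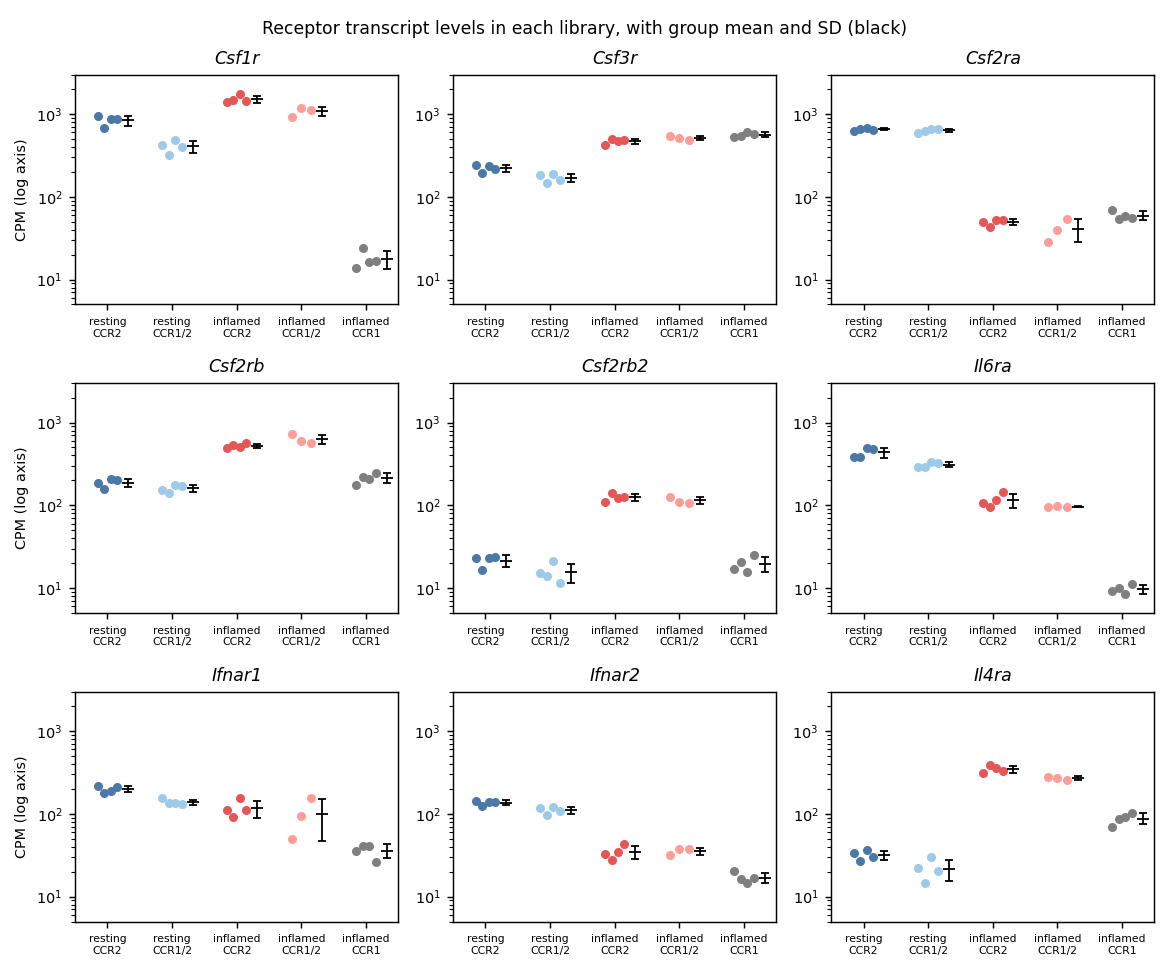
Level of 9 receptor transcripts in CPM on a log axis (1 point per library; the black bar is the group mean ± SD) in the 5 groups. Csf2ra, Il6ra and Ifnar2 points of all inflamed groups lie below all resting points, and in the CCR2 and CCR1/2 groups the Csf2rb, Csf2rb2, Csf3r and Il4ra points of inflamed libraries lie above all resting points; Il6st, at 7 reads or fewer in every library, is not drawn.

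Csf1r, the receptor for CSF1 (ENSMUSG00000024621, chr18:61100598-61132149, plus strand), was among the most abundant receptor transcripts. Its level was 936, 676, 864 and 872 CPM in the resting CCR2 libraries and 1384, 1459.8, 1743 and 1431 CPM in the inflamed ones. Resting CCR1/2 libraries held 427, 319.5, 483 and 397 CPM, and inflamed CCR1/2 libraries held 932, 1191 and 1118 CPM. Every inflamed library of these populations was above every resting library of the same population. The log2 fold change was 1.28 ± 0.13 in CCR1/2 monocytes (adjusted p = 6.90e-06), which was called. In CCR2 monocytes it was 0.78 ± 0.12 (adjusted p = 4.67e-05), under the fold cutoff. A stretch of 15.1% of its exonic bases is overlapped by Hmgxb3 on the opposite strand, and since the strand setting of the counting is not given in the sources used here, reads there cannot be assigned with certainty.

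Csf3r, the G-CSF receptor (ENSMUSG00000028859, chr4:126024550-126044440, plus strand), was higher after infusion in both populations. Resting CCR2 libraries held 244, 192, 236 and 217 CPM and inflamed CCR2 libraries 421, 497, 477 and 486 CPM. In CCR1/2 monocytes it went from 183, 147, 188 and 160.4 CPM to 549, 517 and 490.4 CPM. The groups did not overlap in either population, which also held for 46.1% (CCR2) and 50.4% (CCR1/2) of all genes tested. The log2 fold change was 1.01 ± 0.10 in CCR2 (adjusted p = 1.06e-06) and 1.48 ± 0.10 in CCR1/2 monocytes (adjusted p = 2.43e-07). The first of these sat at the fold cutoff, and the call ended at 0.98 without inflamed CCR2 replicate 4, just under the cutoff without replicate 2, and at 0.99 with edgeR's own filter on low counts, where the adjusted p was at most 7.19e-06. Csf3r is also used as a neutrophil marker. Of the mature neutrophil markers tested, 7 of 17 were called higher in inflamed CCR2 (median log2 fold change 0.89) and 7 of 18 in inflamed CCR1/2 monocytes (median 1.24). Csf3r is itself among the 7 in each population, so these counts and medians are not independent of it. The summed level of the 18 markers other than Csf3r overlapped between inflamed and resting libraries. It came to 1459 to 2253 CPM in resting CCR2 and 1752 to 1989 CPM in inflamed CCR2 libraries, and to 3179 to 4078 CPM in resting CCR1/2 and 3340 to 3879 CPM in inflamed CCR1/2 libraries. The part of these markers in the Csf3r result was not tested.

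The chains of the GM-CSF receptor moved in opposite directions. Csf2ra, the ligand-binding α chain (ENSMUSG00000059326, chr19:61223957-61228429, minus strand), stood at 630.4, 666, 684 and 646 CPM in resting CCR2 and 591, 624, 655 and 665 CPM in resting CCR1/2 libraries. In inflamed libraries it stood at 49.9, 43.5, 52.7 and 52.8 CPM (CCR2) and 28.5, 40.1 and 54.2 CPM (CCR1/2). The lowest resting library was thus far above the highest inflamed one. Its log2 fold change was -3.79 ± 0.11 in CCR2 (adjusted p = 1.01e-11) and -4.07 ± 0.22 in CCR1/2 monocytes (adjusted p = 2.59e-07). Csf2ra had the 9th smallest p of 18502 genes in the CCR2 comparison.

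Csf2rb, the β common chain shared by GM-CSF, IL-3 and IL-5 (ENSMUSG00000071713, chr15:78325752-78353847, plus strand), rose. Its level was 185, 159, 207 and 200.5 CPM in resting and 495, 537, 504 and 560.5 CPM in inflamed CCR2 libraries. CCR1/2 libraries held 154, 143, 174 and 170.5 CPM at rest and 721, 605 and 568 CPM after infusion. The log2 fold change was 1.41 ± 0.10 in CCR2 (adjusted p = 2.46e-08) and 1.85 ± 0.09 in CCR1/2 monocytes (adjusted p = 2.70e-08), with no overlap between groups in either population.

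Csf2rb2, the IL-3-specific β chain (ENSMUSG00000071714, chr15:78282507-78305721, minus strand), lies beside Csf2rb in the opposite orientation and rose further. It stood at 22.8, 16.4, 23.3 and 23.5 CPM in resting and 109.6, 141, 123 and 125 CPM in inflamed CCR2 libraries. In CCR1/2 libraries it stood at 15.3, 13.9, 21.01 and 11.6 CPM at rest and 126, 111 and 107 CPM after infusion. These groups were well separated, with log2 fold changes of 2.47 ± 0.13 in CCR2 (adjusted p = 7.02e-10) and 2.77 ± 0.17 in CCR1/2 monocytes (adjusted p = 1.46e-07). Because 17.1% of the 35-base windows of Csf2rb transcripts and 25.9% of those of Csf2rb2 are shared between the pair, and reads that aligned to more than 1 place were dropped, the counts of both genes are uncertain.

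The balance of these chains within a library changed accordingly. As CPM per kilobase, the ratio of Csf2ra to Csf2rb was 8.16 to 10.6 in resting CCR2 and 9.53 to 11.1 in resting CCR1/2 libraries, so the α chain exceeded the β common chain. In inflamed libraries the ratio was 0.205 to 0.265 (CCR2) and 0.1 to 0.242 (CCR1/2), with the β chain in excess in every library. The difference gave p = 0.0286 in CCR2 (exact two-sided permutation test, n = 4 and 4, the smallest p this design allows) and p = 0.0571 in CCR1/2 monocytes (exact, n = 3 and 4, again the smallest it allows, so 0.05 cannot be reached). The ratio of Csf2rb2 to Csf2rb rose from 0.175 ± 0.0132 (SD, n = 4) to 0.365 ± 0.0295 (n = 4) in CCR2 monocytes, with the same exact p of 0.0286.

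**Figure D2:**
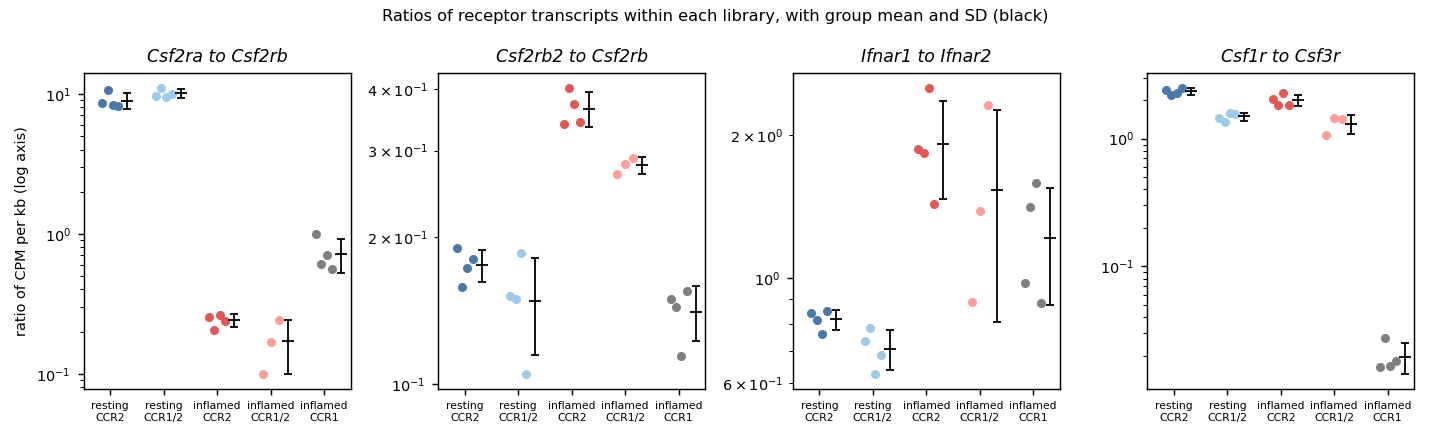
Ratio of 2 receptor transcripts within each library, as CPM per kilobase on log axes that differ between panels (1 point per library; black bar, group mean ± SD). Csf2ra to Csf2rb lies above 8 in resting and below 1 in inflamed libraries, and Csf1r to Csf3r lies below 0.03 only in the inflamed CCR1 libraries.

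The fall of Csf2ra stood beside falls of other abundant transcripts. Of 3668 genes with a mean of at least 50 CPM over the resting libraries, 174 were lower by at least 8-fold in inflamed CCR2 monocytes and 0 were higher by as much, and in CCR1/2 monocytes 173 were lower and 1 was higher. There were 59 of them with a lower log2 fold change than Csf2ra in CCR2 and 55 in CCR1/2 monocytes. The 174 genes lower by at least 8-fold in CCR2 monocytes included some that most cells use, picked here after their values were seen. Rac1, a GTPase of the actin cytoskeleton, went from 825 ± 76.6 CPM (SD, n = 4) to 78.3 ± 10.2 CPM (n = 4) in CCR2 monocytes. Cox5a, a subunit of cytochrome c oxidase, went from 117 ± 6.35 CPM to 5.59 ± 0.933 CPM there. Spi1, which encodes PU.1, went from 735 ± 74.9 CPM to 38.1 ± 1.64 CPM. Their part in the levels of Csf2ra, Il6ra and Ifnar2 was not tested. For comparison, 1072 tested genes within 1 percentage point of its 57.8% GC had a median log2 fold change of 0.01 in CCR2 monocytes, and 4.48% of them had a lower value than Csf2ra.

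**Figure D3:**
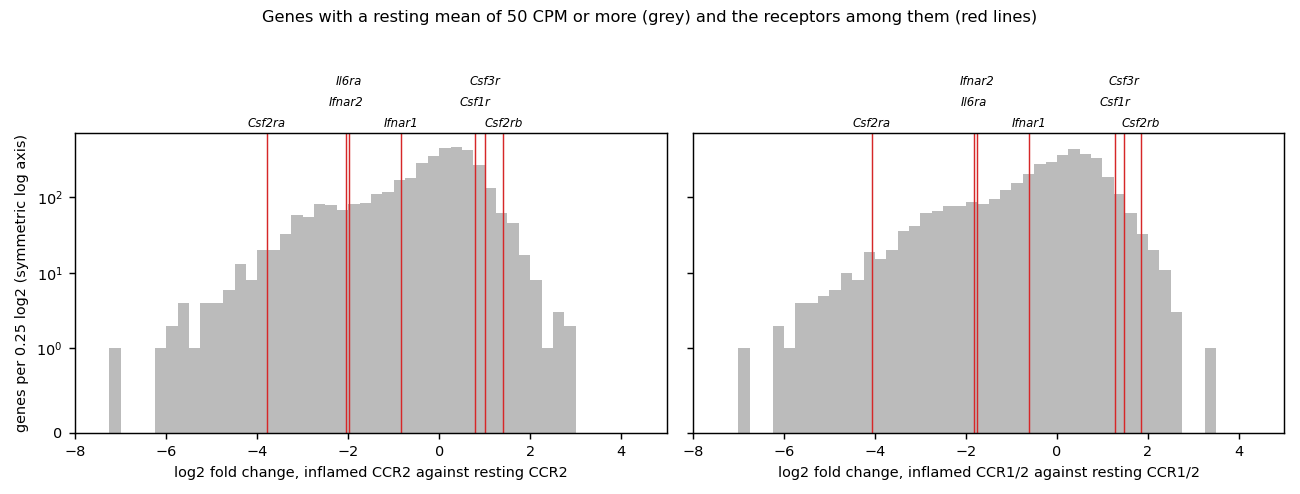
Number of genes (symmetric log axis) by log2 fold change, in steps of 0.25, among the 3668 genes with a resting mean of at least 50 CPM, for CCR2 (left) and CCR1/2 monocytes (right); red lines are the 7 receptors among them. Csf2ra lies in a long lower tail, with 174 (left) and 173 (right) genes at -3 or below and 0 and 1 at 3 or above.

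The 2 chains of the IL-6 receptor differed in detection. Il6ra, which binds IL-6 (ENSMUSG00000027947, chr3:89864059-89913196, minus strand), stood at 381, 387, 491 and 483 CPM in resting and 107, 94.2, 115 and 145 CPM in inflamed CCR2 libraries. CCR1/2 libraries held 290.4, 292, 336 and 321 CPM at rest and 94.5, 98.2 and 95.9 CPM after infusion. All inflamed libraries were below all resting ones, with log2 fold changes of -1.98 ± 0.14 (adjusted p = 2.50e-08) and -1.81 ± 0.08 (adjusted p = 1.53e-08) in CCR2 and CCR1/2 monocytes. Il6st, the gp130 chain (ENSMUSG00000021756, chr13:112464070-112510086, plus strand), gave 4, 7, 2 and 1 reads in resting CCR2 libraries and 0, 0, 0 and 7 reads in resting CCR1/2 libraries. Inflamed libraries gave 0, 1, 1 and 0 reads (CCR2), 1, 2 and 0 reads (CCR1/2) and 0, 0, 0 and 4 reads (CCR1). With at most 7 reads in a library, and with 0 reads allowing up to 3 by counting error alone, Il6st was at the limit of detection throughout and no fold is given for it.

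The 2 chains of the type I interferon receptor were both lower on average, but only Ifnar2 was called. Ifnar2 (ENSMUSG00000022971, chr16:91372783-91405589, plus strand), the chain of higher affinity, stood at 145, 124, 139.5 and 140.2 CPM in resting and 33.0, 28.0, 34.6 and 43.3 CPM in inflamed CCR2 libraries. In CCR1/2 libraries it stood at 117, 96.9, 119.9 and 109 CPM at rest and 31.5, 38.1 and 37.2 CPM after infusion. The groups did not overlap, and the log2 fold change was -2.05 ± 0.14 (adjusted p = 1.01e-08) in CCR2 and -1.76 ± 0.12 (adjusted p = 2.43e-07) in CCR1/2 monocytes. The annotated gene Gm21970 overlaps 9.5% of its exonic bases on the same strand, so some of its reads could have been set aside as ambiguous.

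Ifnar1 (ENSMUSG00000022967, chr16:91485238-91507441, plus strand) stood at 218, 179, 189.8 and 212 CPM in resting and 110.2, 92.0, 156 and 111 CPM in inflamed CCR2 libraries, which did not overlap. Its log2 fold change there was -0.84 ± 0.15 (adjusted p = 0.00021), under the fold cutoff, and -1.01 without inflamed CCR2 replicate 3, which made it a call. In CCR1/2 libraries it stood at 153, 135, 134 and 133 CPM at rest and at 50.0, 94.2 and 154 CPM after infusion, the last 3 spreading more widely than the 4 inflamed CCR2 libraries and overlapping the resting ones. The log2 fold change was -0.60 ± 0.32 (adjusted p = 0.158), and -1.09 (adjusted p = 0.00309) without inflamed CCR1/2 replicate 4, the highest of these 3. The ratio of Ifnar1 to Ifnar2, as CPM per kilobase, was 0.762 to 0.849 in resting and 1.43 to 2.52 in inflamed CCR2 libraries (exact two-sided permutation p = 0.0286, n = 4 and 4).

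Il4ra (ENSMUSG00000030748, chr7:125552120-125579474, plus strand), a receptor for IL-4 and IL-13 that is known for alternative activation of macrophages, had the largest rise of the 10 although IL-4 was not infused. Resting libraries held 33.8, 26.9, 36.5 and 29.8 CPM (CCR2) and 22.1, 14.8, 29.9 and 20.6 CPM (CCR1/2). Inflamed libraries held 308, 387, 359 and 330.2 CPM (CCR2) and 281, 275 and 258 CPM (CCR1/2), all of them above every resting library. The log2 fold change was 3.37 ± 0.12 in CCR2 (adjusted p = 2.97e-11) and 3.52 ± 0.18 in CCR1/2 monocytes (adjusted p = 5.80e-08). Among 1514 tested genes within 1 percentage point of its 55.8% GC, 98.2% had a lower log2 fold change than Il4ra in CCR2 monocytes. Basophil and mast cell markers, which mark cells that respond to IL-4 and IL-3, rose beside it: their summed level (7 genes) was 6.61 to 16.8 CPM in resting and 111 to 247 CPM in inflamed CCR2 libraries, where Prss34, a basophil protease, led with 156 CPM. In CCR1/2 libraries the sum was 6.84 to 30.5 CPM at rest and 135 to 185 CPM after infusion. It was highest in the inflamed CCR1 libraries, at 869 to 1018 CPM. Il4ra there was lower than in inflamed CCR2 libraries, at 87.9 ± 13.4 CPM (SD, n = 4) against 346 ± 34.5 CPM (n = 4). The part of these markers in the Il4ra result was not tested. Another annotated gene, Gm44876, overlaps 9.5% of the exonic bases of Il4ra on the opposite strand.

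**Figure D4:**
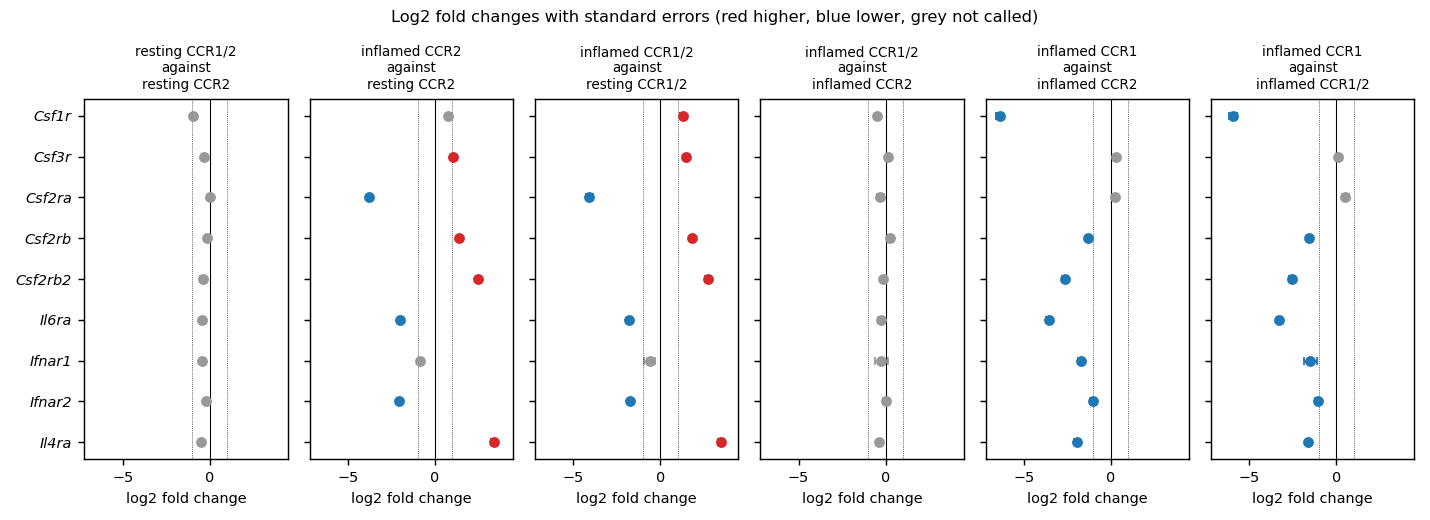
Log2 fold change of 9 receptor transcripts (points) with standard errors (bars) in 6 comparisons; red and blue mark calls of higher and lower, grey marks no call, and dotted lines mark the fold cutoff at -1 and 1. Calls in the comparisons of inflamed with resting monocytes go both ways. In each comparison of the inflamed CCR1 libraries with inflamed monocytes, all 7 calls are lower in the CCR1 libraries.

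The order of the receptors by level per length differed between resting and inflamed libraries. In resting CCR2 monocytes Csf2ra came first with 229 ± 8.16 CPM per kilobase (SD, n = 4), followed by Csf1r with 145 ± 19.4. Csf3r (61.6 ± 6.42 CPM per kilobase) and Il6ra (50.4 ± 6.89) came next and their libraries overlapped. Ifnar2, Ifnar1 and Csf2rb followed in that order without overlap of neighbours, while Il4ra and Csf2rb2, at 5.29 ± 0.713 and 4.54 ± 0.715 CPM per kilobase, overlapped each other. Resting CCR1/2 monocytes had the same order, except that there Il6ra and Ifnar2, and Ifnar1 and Csf2rb, also overlapped, while Csf3r and Il6ra did not. In inflamed CCR2 monocytes Csf1r led with 261 ± 28.1 CPM per kilobase, followed by Csf3r (130.3 ± 9.38), Csf2rb (72.0 ± 4.15) and Il4ra (57.7 ± 5.75), none of which overlapped its neighbour. The remaining receptors, Csf2rb2, Ifnar1, Csf2ra, Il6ra and Ifnar2, lay between 26.3 ± 2.72 and 10.4 ± 1.91 CPM per kilobase, and each overlapped the next. Inflamed CCR1/2 monocytes had the same order and the same overlaps. In the libraries labelled inflamed CCR1, Csf3r led with 157 ± 9.99 CPM per kilobase, followed without overlap by Csf2rb, Csf2ra and Il4ra. Ifnar1, Ifnar2, Csf2rb2 and Csf1r came next, each overlapping the following one, with Csf1r at 3.06 ± 0.769 and Il6ra last of those above detection at 1.13 ± 0.138 CPM per kilobase.

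Resting CCR1/2 and CCR2 monocytes were compared to ask whether the sorted populations differ before infusion. No receptor was called in either direction, beside 2.36% of 18498 genes called higher and 1.92% called lower in CCR1/2 monocytes. Of the 10, 4 passed the adjusted p alone (3151 of all genes), and 7 had an unadjusted p below 0.05 (5439 of all genes). Same-numbered libraries deviated together here, although the labels state no pairing. With the replicate number as a block 8 of the 10 passed the adjusted p, while 0 reached the fold cutoff. Each of the 8 had the lower level in CCR1/2 in 4 of 4 same-numbered pairs. The 4 added were Il4ra (adjusted p = 0.00132), Ifnar2 (0.00474), Csf2rb2 (0.0278) and Csf2rb (0.0499). How many of all genes passed the adjusted p with the block, or were lower in 4 of 4 pairs, was not counted. The 8 therefore have no share of all genes to be read against. Csf1r came nearest to a call, at 407 ± 68.2 CPM (SD, n = 4) in CCR1/2 and 837 ± 112 CPM (n = 4) in CCR2 libraries, which did not overlap. Its log2 fold change of -0.97 ± 0.12 (adjusted p = 0.000245) lay just inside the fold cutoff, and it became a call when resting CCR1/2 replicate 1 (just past the cutoff), resting CCR1/2 replicate 3 (-1.05) or resting CCR2 replicate 2 (-1.05) was left out. Ifnar1 (-0.45 ± 0.09, adjusted p = 0.00386), Il6ra (-0.41 ± 0.09, adjusted p = 0.0067) and Csf3r (-0.31 ± 0.10, adjusted p = 0.0422) had smaller differences in the same direction. Csf2ra did not pass, with 0.02 and an adjusted p of 0.856. The median log2 fold change of the 10 was -0.41, beside 0.04 over all genes. The resting groups did not overlap for 5 of the 10, beside 20.3% of all genes tested. The ratio of Csf1r to Csf3r separated the populations, at 1.36 to 1.6 in CCR1/2 and 2.2 to 2.51 in CCR2 libraries (exact two-sided permutation p = 0.0286, n = 4 and 4). The early granule and progenitor markers also differed here, summing to 3315 to 6826 CPM in CCR1/2 and 508 to 1683 CPM in CCR2 libraries. Dendritic cell markers summed to 119 to 280.4 CPM in CCR1/2 and 418 to 1121 CPM in CCR2 libraries, with 7 of 13 called lower. Monocyte markers summed to 37739 to 52686 CPM and 56143 to 66604 CPM, which did not overlap, and 6 of 17 mature neutrophil markers were called higher. The part of these markers in the receptor differences was not tested.

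After infusion the CCR1/2 and CCR2 monocytes differed in no receptor call, beside 0.104% of 18281 genes called higher and 0.0438% called lower. The median log2 fold change of the 10 was -0.19, beside -0.04 over all genes. The inflamed groups did not overlap for 3 of the 10, beside 9.91% of all genes tested. Csf1r had the smallest p of the 10, with a log2 fold change of -0.49 ± 0.12 (adjusted p = 0.174), and its libraries did not overlap. Il4ra followed with -0.37 ± 0.11 (adjusted p = 0.292), and Csf2rb with 0.25 ± 0.11 (adjusted p = 0.501). These 3 had an unadjusted p below 0.05, and DESeq2, the other tool run, called none of the 10 either. Whether inflammation changed a receptor by a different amount in the 2 populations was tested as an interaction on the 15 libraries of these 4 groups, called on the adjusted p alone. It called 0 of the 10, beside 0.242% of 18599 genes in the positive and 0.156% in the negative direction. The median interaction of the 10 was 0.25, beside -0.10 over all genes. The receptors nearest to a call were Csf3r (0.43 ± 0.14, adjusted p = 0.202), Csf2rb (0.39 ± 0.14, adjusted p = 0.228) and Csf1r (0.46 ± 0.18, adjusted p = 0.279), each with an unadjusted p below 0.05 and a larger rise in CCR1/2 monocytes, and DESeq2 called Csf3r (0.49, adjusted p = 0.0446). That Csf1r was called in CCR1/2 and not in CCR2 monocytes therefore does not show a difference between them.

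The libraries labelled inflamed CCR1, which carried the neutrophil and early granule markers given above, had most of these receptors at lower levels than the inflamed monocytes. Against inflamed CCR2 monocytes 7 of the 10 were lower and 0 higher, beside 17% of 18485 genes called lower and 14.6% called higher. The comparison with inflamed CCR1/2 monocytes shares these CCR1 libraries and called the same 7 lower and 0 higher, beside 14.8% of 18418 genes lower and 13.4% higher. The median log2 fold change of the 10 was -1.49 and -1.52, beside -0.02 and -0.01 over all genes. Libraries did not overlap for 9 and 7 of the 10, beside 45.8% and 48.0% of all genes tested.

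Csf1r was nearly absent, at 13.7, 24.1, 16.2 and 16.8 CPM, with a log2 fold change of -6.40 ± 0.18 against CCR2 (adjusted p = 7.65e-14) and -5.93 ± 0.21 against CCR1/2 monocytes (adjusted p = 8.59e-09). Csf3r, in contrast, stood at 527, 545, 608 and 580.1 CPM, which was 0.27 ± 0.10 on the log2 scale above CCR2 monocytes (adjusted p = 0.0288) and under the fold cutoff. The ratio of Csf1r to Csf3r was 0.0163 to 0.0276, against 1.84 to 2.28 in inflamed CCR2 libraries (exact two-sided permutation p = 0.0286, n = 4 and 4). Il6ra was the next lowest relative to monocytes, at 9.1, 10.1, 8.6 and 11.3 CPM and -3.56 ± 0.16 (adjusted p = 8.15e-12). Csf2rb (-1.29) and Csf2rb2 (-2.66) were lower than in inflamed CCR2 monocytes, at 178, 223, 208 and 248 CPM and 17.2, 20.8, 15.5 and 25.1 CPM. These ranges overlapped those of the resting CCR2 libraries.

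Csf2ra stood at 69.9, 53.9, 58.2 and 54.8 CPM in the inflamed CCR1 libraries, slightly above the inflamed CCR2 libraries without overlap but not called (0.26 ± 0.13 against CCR2, adjusted p = 0.105, and 0.53 ± 0.21 against CCR1/2, adjusted p = 0.0611). Rac1 and Cox5a, named above, were likewise at 33.2 ± 3.70 CPM and 7.46 ± 2.32 CPM there (SD, n = 4). Il4ra stood at 70.2, 86.9, 91.9 and 102 CPM, between the resting and the inflamed monocyte libraries and overlapping neither, with -1.97 ± 0.12 against CCR2 monocytes (adjusted p = 5.25e-10). Ifnar1 (35.3, 40.6, 41.3 and 26.4 CPM) had a log2 fold change of -1.70 ± 0.18 against CCR2 (adjusted p = 7.21e-07) and -1.48 ± 0.39 against CCR1/2 monocytes (adjusted p = 0.0211). The latter call was lost without inflamed CCR1/2 replicate 3 (adjusted p = 0.0516) and without inflamed CCR1 replicate 1 (0.0624) or replicate 4 (0.0566). Ifnar2 (20.3, 16.1, 14.6 and 16.8 CPM) sat at the fold cutoff, with -1.03 ± 0.16 against CCR2 and -1.07 ± 0.15 against CCR1/2 monocytes. Leaving out inflamed CCR1 replicate 2 or 3 or inflamed CCR2 replicate 4 took the first inside the cutoff, as far as -0.89, and leaving out inflamed CCR1 replicate 3 took the second just inside it, which ended those calls.

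Other receptors of the same families were examined as lists, whose counts stand beside the shares of all genes called in the same comparison. These were 9.47% higher and 19.3% lower in inflamed against resting CCR2 and 9.21% and 19.5% in CCR1/2 monocytes, 2.36% and 1.92% between the resting populations, and 14.6% and 17% for the inflamed CCR1 libraries against CCR2 and 13.4% and 14.8% against CCR1/2 monocytes. Up to 3 genes are named per list and comparison, so a gene named for 1 population is not thereby different in the other. Of 27 further class I cytokine receptor genes, 18 were tested in CCR2 monocytes, of which 2 rose and 4 fell with inflammation (median log2 fold change 0.02). Il2rg, the common γ chain that pairs with IL4RA, rose by 1.12 and Il21r, the IL-21 receptor, by 1.53, while Crlf2, the TSLP receptor, fell (-3.74). In CCR1/2 monocytes 3 of 17 rose and 1 fell (median 0.01), with Il2rg (1.91) and Lifr, a partner of gp130 (1.74), higher and Crlf2 (-4.23) lower. At rest 0 rose and 6 of 18 fell in CCR1/2 against CCR2 monocytes (median -0.99), including Il13ra1, the IL-13-binding partner of IL4RA (-1.10), Il12rb2 (-1.44) and Il2rg (-1.06). The inflamed CCR1 libraries had 4 of 18 higher and 7 lower than in CCR2 monocytes (median -1.51), with Lifr at -7.43, Il2rg at -1.79 and Ebi3, a soluble subunit of IL-27, at 2.35. Against CCR1/2 monocytes 5 were higher and 6 lower (median -0.59), with Lifr at -7.45, Il2rg at -1.51 and Il21r at 1.76.

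Of 9 further class II receptor genes 7 were tested, of which 1 rose and 2 fell in inflamed CCR2 monocytes (median 0.15). Ifngr2, the signalling chain for IFN-γ, fell (-3.30 and, in CCR1/2 monocytes, -2.93, where it was the 1 call, median 0.43), Il10rb fell (-1.10) and Il22ra2, a soluble IL-22-binding protein, rose (2.17). At rest 1 of 7 was called, Il22ra2 (2.07, median -0.48), at low means of 0.495 CPM in CCR2 and 2.00 CPM in CCR1/2 libraries. In the inflamed CCR1 libraries 3 were higher and 2 lower against either monocyte group (medians -0.70 and -0.55). Il10ra, which binds IL-10, was at -6.78 against CCR2 and -6.42 against CCR1/2 monocytes. Ifnlr1, for type III interferons, was at 5.53 and 5.82, and Ifngr2 at -2.24 and -2.11.

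Among 7 receptor tyrosine kinases of blood cells 5 were tested, and in each comparison with resting cells 1 rose and 2 fell (medians 0.71 in CCR2 and 0.86 in CCR1/2 monocytes). Axl, a receptor for apoptotic cells, rose (1.55 and 1.44), while Flt3, the receptor of dendritic cell precursors (-3.73 and -2.55), and Kit, the stem cell factor receptor (-2.59 and -3.11), fell. Kit was low in these groups. Its mean was 0.800 CPM in resting and 0.138 CPM in inflamed CCR2 libraries, and 3.42 and 0.442 CPM in CCR1/2 libraries. At rest Kit was higher (2.18) and Flt3 (-2.52) and Axl (-1.28) lower in CCR1/2 monocytes (median -0.90). Kit was the 1 higher call in the inflamed CCR1 libraries (10.14 against CCR2, 8.48 against CCR1/2) and 3 were lower (medians -3.58 and -2.66), among them Axl (-4.53 and -3.14) and Mertk (-3.58 and -3.62). Kit stood there at 160 ± 21.9 CPM (SD, n = 4), against at most 7.64 CPM in every other library. Of 26 ligand genes of the 10 receptors only 4 had enough reads to be tested. Csf1 was the single call in inflamed CCR2 monocytes (-1.27, median -0.47), 0 were called in inflamed against resting CCR1/2 monocytes (median -1.09) or between the resting populations (median 0.42), and in the inflamed CCR1 libraries Ifnk was lower than in CCR2 (-2.08, median -0.34) and Csf1 higher than in CCR1/2 monocytes (1.47, median 0.06). Both are low, with group means of at most 3.20 CPM for Csf1 and 0.657 CPM for Ifnk.

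Downstream of the receptors, 11 JAK and STAT genes were tested. With inflammation 4 rose and 2 fell in CCR2 monocytes (median 0.29), and 5 rose and 0 fell in CCR1/2 monocytes (median 0.64). Tyk2, the kinase bound to IFNAR1, rose by 2.50 and 2.15, and Stat6, which IL4RA activates, by 1.22 and 1.79. Stat5a, activated by the β common chain, rose in CCR1/2 monocytes (1.20), and its mean level was 36.4 CPM in resting and 93.1 CPM in inflamed CCR2 libraries. Jak1, the kinase of IL4RA, gp130 and IFNAR2, fell in CCR2 monocytes (-1.53), and its mean level was 220.4 CPM in resting and 123 CPM in inflamed CCR1/2 libraries. At rest 0 of 11 were called (median -0.39). Of these genes 2 were higher and 5 lower in the inflamed CCR1 libraries against either monocyte group (medians -0.97 and -0.58), with Stat4 at 3.75 and 2.82, Stat6 at -1.50 and -1.61, Tyk2 at -2.37 against CCR2 and Stat5b at -1.10 against CCR1/2 monocytes.

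Of 17 feedback regulators tested, 3 rose and 4 fell in inflamed CCR2 monocytes (median -0.37), and 4 rose and 4 fell in CCR1/2 monocytes (median -0.28). Cish, an inhibitor that STAT5 induces, rose by 5.43 and 4.77, from 0.376 to 17.3 CPM on average in CCR2 monocytes. Pias4, a SUMO ligase, fell (-2.93 and -2.90), as did the phosphatase gene Ptpn1 in CCR2 (-1.52) and Pias2 in CCR1/2 monocytes (-1.91). Pias2 had mean levels of 26.7 and 7.08 CPM in resting and inflamed CCR2 libraries. At rest 0 of 17 were called (median -0.17). In the inflamed CCR1 libraries 8 were lower and 0 higher than in CCR2 (median -0.995), and 6 lower and 1 higher than in CCR1/2 monocytes (median -0.84). Socs3, the inhibitor of gp130 and CSF3R signalling, was at -7.09 and -6.42, Usp18, the inhibitor that binds IFNAR2, at -3.69 and -3.67, and Ptpn1 at -1.95 and -1.82.

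Of 14 genes for shedding and breakdown of receptors tested, 1 rose in inflamed CCR2 (Rhbdf2, 1.45, median 0.29) and 3 rose in CCR1/2 monocytes (median 0.55), namely Adam17, the protease that sheds IL6RA and CSF1R (1.35), Rnf41, a ubiquitin ligase of cytokine receptors (1.05), and Rhbdf2, which brings ADAM17 to the cell surface (1.17). At rest only Rhbdf1 was called (-4.10, median -0.27), at under 1 CPM on average in both groups. In the inflamed CCR1 libraries 1 was higher and 4 lower than in CCR2 (median -0.57), and 1 higher and 1 lower than in CCR1/2 monocytes (median -0.48). Nedd4, a ubiquitin ligase, was at 7.05 and 6.69, Adam17 at -1.73 and -1.68, and Rhbdf2 at -1.17 against CCR2. Of 13 adaptors of the CSF1 and β common receptors tested, 2 rose and 1 fell in inflamed CCR2 (median 0.02), and 4 rose and 1 fell in CCR1/2 monocytes (median 0.27). Pik3cd, the δ catalytic subunit of PI3-kinase, rose by 1.80 and 1.68 and the adaptor Shc1 by 1.10 and 1.29, and Fgr rose in CCR1/2 monocytes (1.57). At rest 0 of 13 were called (median -0.23). In the inflamed CCR1 libraries 5 were lower and 0 higher than in CCR2 (median -0.53), and 5 lower and 1 higher than in CCR1/2 monocytes (median -0.61), with Tyrobp at -1.80 and -1.89, Pik3cd at -1.78 and -1.42, Gab2 at -2.13 against CCR2 and Fgr at -1.75 against CCR1/2 monocytes. Neither the comparison of the inflamed monocyte groups nor the interaction called any gene of these 8 lists.

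For each receptor except Il6st, the 3 genes with the most similar pattern were found among the 7684 other genes with a mean of at least 10 CPM, as the root mean square difference of centred log2 CPM over the 19 libraries, where a smaller value is closer. Csf2ra lay closest to Rheb (0.168), Rbfa (0.205) and Rab11a (0.210), the first and last of them small GTPases of general use. Rheb, for instance, went from 254 ± 18.6 CPM (SD, n = 4) to 18.2 ± 2.30 CPM (n = 4) in CCR2 monocytes. Csf3r lay closest to Pcyt1a (0.134), Ogfod1 (0.149) and Copg1 (0.150), Csf2rb to Apobr (0.157), Pfkl (0.159) and Ampd3 (0.161), and Ifnar2 to Zyx (0.157), Tent5a (0.178) and Qk (0.184). Csf1r lay closest to Pkp3 (0.261), Rara (0.297) and Cd68 (0.315), the last a macrophage marker, and Ifnar1 to Ldlrad3 (0.249), 1500011B03Rik (0.261) and Pqlc3 (0.295). Il6ra lay closest to Fam174a (0.261), Ehd4 (0.271) and Spata6 (0.290). Csf2rb2 had more distant neighbours in Iqce (0.365), Rab11fip5 (0.395) and Ppard (0.401), as did Il4ra in Gcnt2 (0.411), Klhl18 (0.505) and Mroh1 (0.507). No receptor was among the 3 closest genes of another.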

How the data were processed

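Reads were paired-end. The authors assessed them with fastp, aligned with STAR 2.7.10a to GRCm38 with the Ensembl 91 annotation, keeping reads that aligned to 1 place over 35 bases or more, and deposited raw read counts per gene (STAR gene counts). Of 20 columns of counts, 1 matched no labelled sample and was not used. Genes were annotated from GENCODE M21 (GRCm38), promoters of 8 receptors came from RefSeq (GRCm38.p6), and levels computed as CPM with TMM factors over 19 libraries. Depth of 22268658 to 30502009 reads limits precision only for transcripts of a few reads, and limits from counts of 0 cover counting error only. Each comparison was fitted on its groups alone (the interaction on 4 groups) with edgeR 4.0.16 (R 4.3.3, limma 3.58.1), quasi-likelihood F test, robust, two-sided, for genes whose average over the 19 libraries reached 1 read, adjusted over all genes tested, with standard errors taken as the log2 fold change over the root of F. Ratios and levels were compared with exact permutation tests, unadjusted. No 2 libraries of a group agreed within sampling noise (chi-square per degree of freedom of at least 11.1).

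Named were all 10 receptors, the 3 genes of smallest p among those called in each pathway list and comparison, and the 3 genes most like each receptor, except 1 gene that is not reported here. The receptors and lists were chosen with earlier results of these data known. Same-numbered libraries deviated together at rest (correlation 0.334 to 0.594 over 4 pairs) and between inflamed CCR1 and CCR2 (0.161 to 0.287). Alternatives were DESeq2 1.42.0, RLE size factors, no filter and edgeR's filter on low counts, no fold cutoff, all 19 libraries in 1 fit, a replicate block, each library left out and, chosen after the data were seen, a GC correction (spline of 6 degrees of freedom) with and without the block. The fit was tested on simulated data.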

Additional observations from a re-analysis of the deposited data

Results flagged for a closer look

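In 40 groups of 4 libraries (10 receptors in 4 groups), 4 single libraries lay far from the other 3 of their group by Dixon's criterion, where chance gives about 1 in 20. Csf2rb2 stood at 16.4 CPM in resting CCR2 replicate 2 and at 22.8 to 23.5 CPM in the other 3, the gap taking 0.902 of the range. Ifnar1 stood at 153 CPM in resting CCR1/2 replicate 1 and at 133 to 135 CPM in the other 3 (0.873 of the range). Il6st had 0.216 CPM in resting CCR1/2 replicate 4 and 0.188 CPM in inflamed CCR1 replicate 4, which are 7 and 4 reads, with 0 reads in the other 3 libraries of each group. With 0 reads in the other 3, any count is flagged, so the rate of 1 in 20 does not apply to Il6st. The group of 3 inflamed CCR1/2 libraries was not tested in this way.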

How the results depend on the processing

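No receptor changed direction past the threshold under any alternative run: of 1213 results for single receptors, 1182 kept their call, 14 gained one and 17 lost one, the latter Csf3r in inflamed against resting CCR2, and Ifnar1 or Ifnar2 in the inflamed CCR1 comparisons. Without the fold cutoff 4 receptors were lower in resting CCR1/2 than in CCR2 monocytes and 1 higher in inflamed CCR1 than in CCR2 libraries, and the genes called were 3151 (resting populations), 8929 and 8597 (inflamed against resting CCR2 and CCR1/2), 8981 and 8077 (inflamed CCR1 against CCR2 and CCR1/2). With all 19 libraries in 1 fit, 1 receptor (Csf1r) was lower between the resting populations. Genes called between the inflamed populations, 27 in the analysis reported, were 106 with DESeq2, 53 with no filter, 53 with all 19 libraries, 80 with the replicate block and 81 with block and GC correction. For the interaction, 74 became 545 with DESeq2 (1 receptor), 113 with RLE, 145 with no filter, 122 with edgeR's filter, 187 with all 19 libraries, 222 with the block and 301 with block and GC correction. Leaving out 1 library gave 518 to 1015 genes and 0 to 1 receptors lower at rest, 15 to 44 genes between the inflamed populations (15 without inflamed CCR1/2 replicate 3, 44 without inflamed CCR2 replicate 1), and 0 to 254 for the interaction. The last was 0 without inflamed CCR1/2 replicate 3, 5 to 48 without resting CCR1/2 replicates 2, 3 or 4, resting CCR2 replicates 1, 3 or 4 or inflamed CCR2 replicates 1 or 2, 210 without resting CCR2 replicate 2 and 254 without inflamed CCR2 replicate 4, while the 518 genes at rest were without resting CCR2 replicate 4. The cause was not tested. The labels state no pairing. Same-numbered libraries deviated together in the resting populations (792 genes called, 1057 with the block) and, less strongly, in inflamed CCR1 and CCR2. There the block changed no receptor call, though 8 instead of 4 receptors passed the adjusted p at rest. The share of all genes that passed with the block was not counted. In the other comparisons, correlations of same-numbered libraries ran from -0.352 to 0.527. Between the inflamed CCR1/2 and CCR2 libraries they were 0.369, 0.527 and -0.32 for replicates 2, 3 and 4. Csf1r passed the adjusted p between these populations under an alternative, without reaching the fold cutoff. The block ended the Ifnar1 call of inflamed CCR1 against CCR1/2 (-1.35, adjusted p = 0.205). Levels under RLE or plain library totals were 0.915 to 1.16 times those given (Il6st left out), and 89 of 100 moved by less than 1 SD.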
